A study of Mus musculus with 8 samples.

Results

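The translation initiation factor genes bring the small ribosomal subunit, the initiator tRNA and the start codon of an mRNA together, and their transcripts were followed in mouse oocytes at the germinal vesicle stage, the immature stage at which the nucleus is still intact. A probe set, the group of short probes that reads 1 transcript region on the array, counted as a member if the platform annotation gave it exactly 1 gene symbol and that symbol began with Eif and a digit from 1 to 6. The eIF2 kinase genes, the Argonaute genes once named Eif2c, Eif4enif1 and Eif4e1b were left out. This gave 119 probe sets of 42 genes, out of 45037 probe sets that are not controls and 18193 genes with 1 symbol. The members were tested with a limma fit across all probe sets listed on at least 3 of the 4 arrays in each group, which 82 of the 119 member probe sets and 38 of the 42 genes passed. Eif1, Eif2s1, Eif3g and Eif4g1 were not analysed here.

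The arrays came from 2 groups of GV oocytes, 4 untreated and 4 kept for 48 h in culture with milrinone, a drug that inhibits the cAMP phosphodiesterase PDE3A and so holds the oocyte in meiotic arrest. Both groups were arrested oocytes, and since no group cultured without the drug was analysed here, effects of milrinone, of culture and of time cannot be told apart. The labels give no mouse strain, age or hormone treatment and do not say whether replicates came from separate animals. The p-values here thus weigh each difference only against the scatter of these samples, which may be technical. Each array received 15 µg of cRNA, so every value is a share of the labelled RNA and no absolute amount.

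Initiation begins when eIF2, with GTP and the initiator tRNA, joins the small ribosomal subunit together with eIF3, eIF1, eIF1A and eIF5. The cap-binding complex eIF4F, made of the cap-binding protein eIF4E, the scaffold eIF4G and the helicase eIF4A, brings in the mRNA, and eIF5B joins the large subunit. Cells slow this process by phosphorylation of eIF2, which blocks its exchange factor eIF2B, or through the 4E binding proteins, which keep eIF4E from eIF4G. A fully grown oocyte makes little new RNA and depends on stored messages, so the timing of their translation is a main control of its maturation.

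The deposited values are intensities on a linear scale with empty cells, and a probe set is called listed on an array where it has a value. An empty cell sets no upper limit, so no fold is given against it. The untreated arrays listed 93, 93, 86 and 86 of the 119 member probe sets, in order of replicate, and those with milrinone 83, 88, 81 and 86. Of all probe sets they listed 41.9% to 51.6% and 41.2% to 43.1%. Untreated 1 was the least alike, its median correlation to the rest being 0.930, where no other array was below 0.966. All 14 oocyte marker genes, Gdf9, Bmp15 and Zp3 among them, were listed on all 8 arrays. Of 24 cumulus, granulosa and theca cell marker genes, 23 were listed on some untreated array and 17 on some milrinone array, with a summed intensity of 27490 to 103518 in untreated, the highest on untreated 1, and of 8006 to 9609 in milrinone. Amh, Amhr2, Star and Fst had no value on any milrinone array. Of 12 blood, stromal and endothelial marker genes, 11 and 5 were listed, with sums of 1435 to 16263 and 569 to 734. Empty cells added nothing to these sums, so fewer listed probe sets lowered them. Of the 51 cumulus, granulosa and theca probe sets, 28 to 40 were listed per untreated array and 14 to 22 per milrinone array. The part of these cells in the differences below was not tested except where a value is given, and in bulk RNA fewer cells of a type and less RNA per cell cannot be told apart.

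Most initiation factor messages differed little between the groups. None of the 82 tested member probe sets passed an adjusted p of 0.05 (limma, Benjamini-Hochberg), where 0.117% of all 16288 tested probe sets did. Each difference below is milrinone minus untreated on the scale of log2(intensity + 16), which understates the changes of dim probe sets. The median over the 82 was 0.01, against 0.06 over all tested probe sets, with 39 lower and 43 higher, and 76 of the 82, or 92.7%, differed by less than 0.5 in size, as did 92.7% of all. The median standard error was 0.13 for the members and 0.17 for all.

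At an unadjusted p under 0.05 in limma there were 8 member probe sets, or 9.76%, where the share of all tested was 9.63%. Of these 8, 6 were lower in milrinone and 2 higher, while of all tested probe sets 652 were lower and 916 higher. The values of the 2 groups did not overlap for 5 members lower in milrinone, or 6.10%, against 2.74% of all, and for 2 higher, or 2.44%, against 5.06%. Of the 6 and of the 5, 3 each were probe sets of 1 gene, Eif3a, which share a target. The plot of the tested probe sets by role shows Eif3a, a probe set each of Eif4ebp1, Eif4ebp2 and Eif5 on the left, and the rest near 0.

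**Figure D1:**
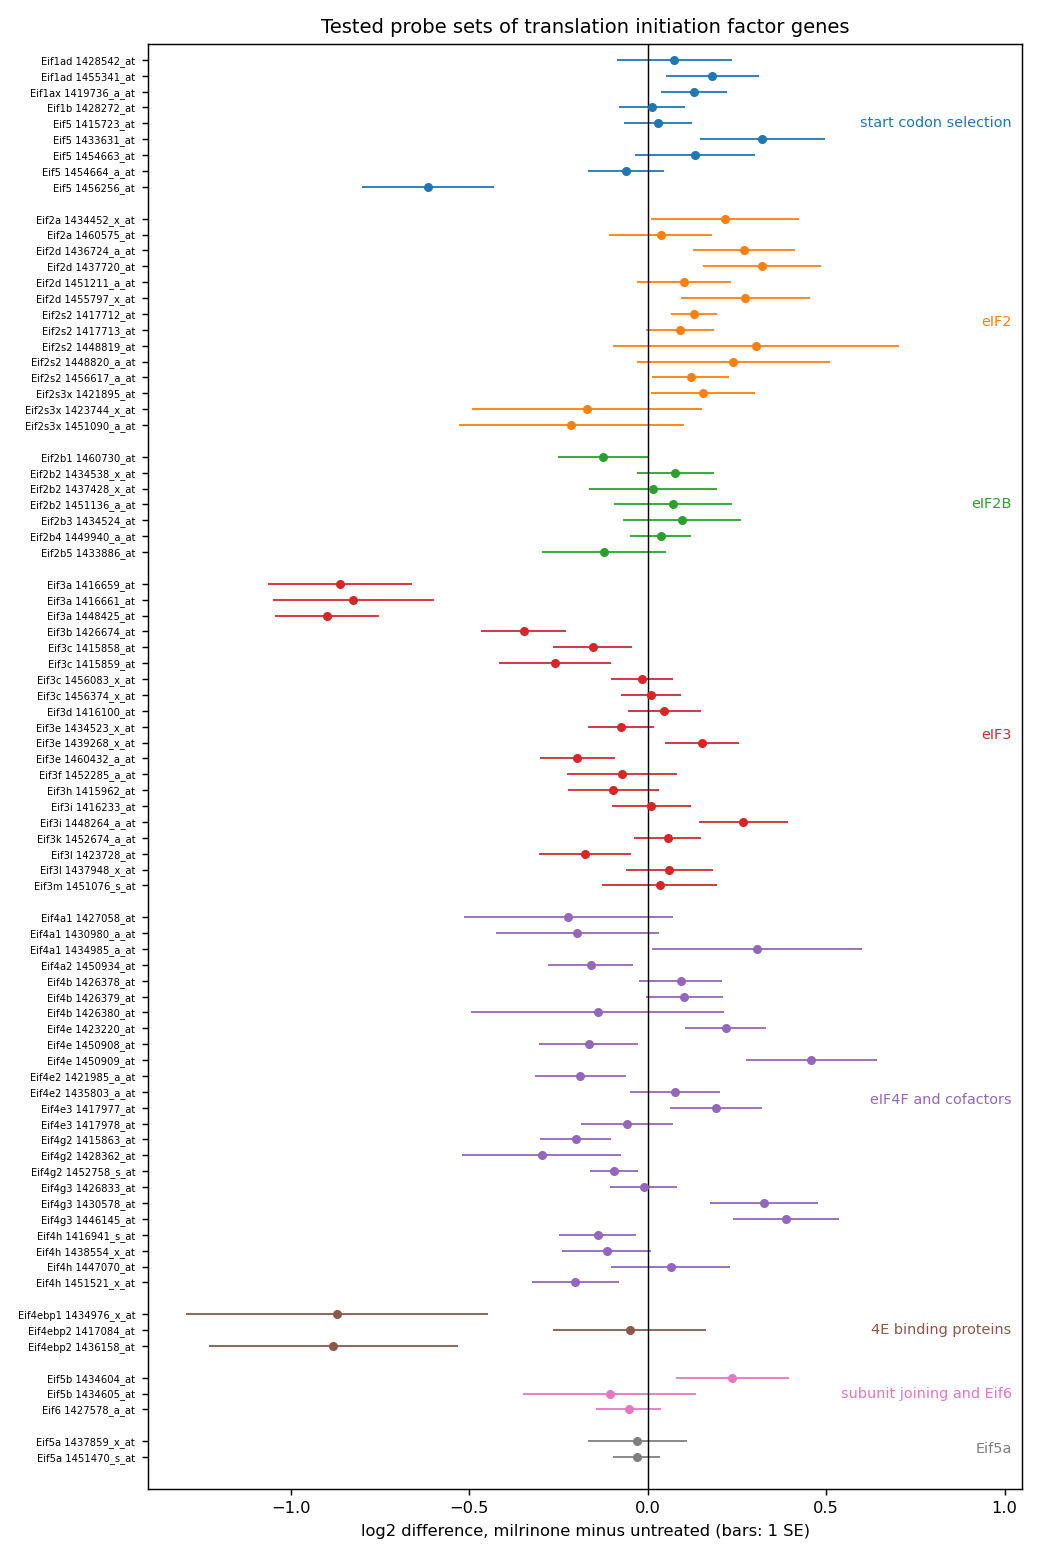
Log2 difference, milrinone minus untreated, of each of the 82 tested probe sets of initiation factor genes (points, with bars of 1 SE), grouped by role. All 3 tested Eif3a probe sets lie between -0.90 and -0.82, and 76 of the 82 lie within 0.5 of 0.

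Eif3a encodes the largest subunit of eIF3, the scaffold complex on the small ribosomal subunit. Its 3 tested probe sets had less signal in milrinone, and none passed with all arrays. The brightest, 1448425_at, had intensities of 2440, 2942, 2261 and 3574 on untreated 1 to 4 and of 1554, 1483, 1480 and 1382 on milrinone 1 to 4. Every milrinone array lay below every untreated array. Its means were 2804 ± 589 (SD, n = 4) and 1475 ± 70.5 (SD, n = 4), and the difference was -0.90 (SE 0.15, 95% interval -1.22 to -0.57, adjusted p = 0.0666 in limma).

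The probe set 1416659_at of Eif3a had 1805, 1542, 1338 and 953 in untreated samples, and 639, 675, 798 and 913 in those given milrinone. The groups did not overlap, but untreated 4 and milrinone 4 were close together. Within the groups its order of arrays differed from that of 1448425_at. Untreated 4 was its lowest untreated array, where 1448425_at had its highest value, 3574. Milrinone 4 was its highest milrinone array, where 1448425_at had its lowest value, 1382. The difference was -0.86 (SE 0.20, adjusted p = 0.283 in limma). The dimmer 1416661_at had 207, 224, 191 and 370 against 129, 134 and 123 on milrinone 1, 2 and 4, with an empty cell on milrinone 3 that the fit left out. Its groups did not overlap either, with a difference of -0.82 (SE 0.23, adjusted p = 0.431 in limma). The last, 1416660_at, was listed on all 4 untreated arrays at 265, 286, 304 and 416 and on no milrinone array, so it was not tested. Like 1448425_at, this probe set and 1416661_at were highest on untreated 4. Of all probe sets, 3.12% were listed on at least 3 arrays in untreated and at most 1 in milrinone.

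**Figure D2:**
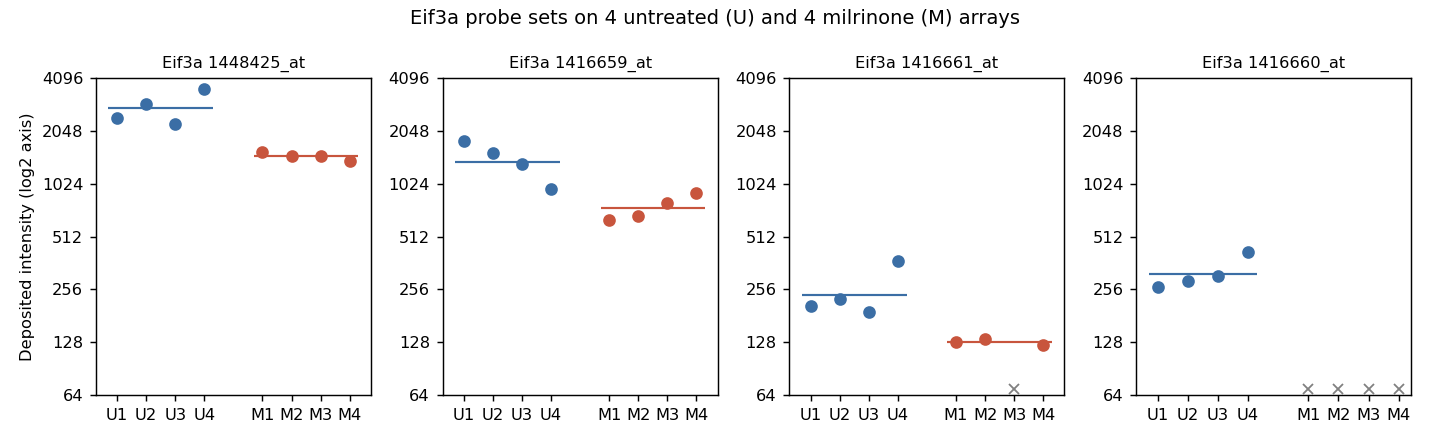
Deposited intensity (log2 axis) of the 4 Eif3a probe sets on untreated arrays U1 to U4 and milrinone arrays M1 to M4. Points are arrays, lines are means on the log scale and grey crosses are empty cells, drawn at the bottom with no value. The 3 probe sets with values in both groups have all milrinone points below all untreated points, and 1416660_at is empty on all 4 milrinone arrays.

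The call for 1448425_at depended on the setting. It passed in 4 of 19 alternatives, with a difference of -0.96 and an adjusted p of 0.0325 without untreated 1 (0.424% of all tested probe sets called), -0.81 and 0.0100 with array weights (0.571%), -0.94 and 0.0379 after quantile normalization (0.117%), and -0.80 and 0.0358 without both untreated 1 and untreated 4 (0.522%). The array weights also brought 1416659_at past the threshold, at -0.85 and 0.0344, where the highest adjusted p of its alternatives was 0.762. In limma the adjusted p of 1448425_at reached 0.458 when the arrays were centred on ribosomal protein genes, where the difference was -0.73.

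The summed somatic marker signal, to which empty cells add nothing, was lower on every milrinone array than on any untreated array. RNA quality was gauged with the Actb and Gapdh controls. Untreated 1, with the highest sum of somatic markers, had 2440 for 1448425_at, less than untreated 2 or untreated 4, while its 1805 for 1416659_at was the highest. The Actb control gave a 3' to 5' ratio, a gauge of RNA integrity, between 6.87 and 13.1 without the drug and between 11.6 and 20.4 with it. That of the Gapdh control lay between 6.23 and 7.68 without the drug and between 6.09 and 8.25 with it. Both pairs of ranges overlapped, that of Actb through milrinone 2 alone, at 11.6. The part of somatic cells or of RNA quality in the Eif3a difference was not tested.

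The other eIF3 subunits did not share a difference of that size. Their 17 tested probe sets, of 10 genes, had a median difference of -0.02 and ran from -0.35 to 0.27. Set against the mean of the 16 of them listed on all arrays, 1448425_at lay at -0.64, -0.21, -0.56 and 0.02 on the untreated arrays and at -1.11, -1.26, -1.13 and -1.27 on the milrinone arrays, on the log2 scale. This ratio within each array, which the scaling of an array barely alters, also separated the groups, with a difference of -0.85. That of 1416659_at was -0.81, and there milrinone 4, at -1.86, met untreated 4, at -1.87. No test is given for these ratios, because they were formed after the values were seen.

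Eif3b, a core subunit that binds Eif3a, was the other eIF3 gene with groups that did not overlap. It had 1832, 1985, 1554 and 1649 in untreated samples, and 1333, 1411, 1269 and 1474 in those given milrinone. The difference was -0.35 (SE 0.12, adjusted p = 0.472 in limma) and did not pass, and it was -0.18 with centring on ribosomal proteins. The brightest eIF3 probe set, 1434523_x_at of Eif3e, differed by -0.07 (95% interval -0.28 to 0.13). Among other subunits, chosen after their values were seen, Eif3f reached 6862 on untreated 1 against 3958 to 4613 elsewhere, and Eif3h 4529 against 3094 to 3651. Both were thus high on the array with the most somatic marker signal.

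The promoter of Eif3a is shown because this gene had the largest difference of the members, and those of Eif2s3x and Eif2s3y because only the first of this X and Y pair was listed on all 8 arrays. The 250 bases before the RefSeq start of each gene are printed from RefSeq on GRCm38.p6, 5′ to 3′ on the gene's strand, with TGACG and its complement CGTCA in capitals. TGACG is the core of the cAMP response element, the binding motif of CREB factors, and no factor's binding was measured here. Eif3a lies on the minus strand at chr19:60790694-60790943, Eif2s3x on the minus strand at chrX:94212652-94212901 and Eif2s3y on the plus strand at chrY:1010345-1010594.
Eif3a: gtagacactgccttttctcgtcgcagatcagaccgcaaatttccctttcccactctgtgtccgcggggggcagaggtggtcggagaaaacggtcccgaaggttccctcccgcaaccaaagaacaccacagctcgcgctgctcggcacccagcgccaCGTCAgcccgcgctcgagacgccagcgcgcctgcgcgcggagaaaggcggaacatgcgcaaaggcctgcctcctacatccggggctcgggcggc
Eif2s3x: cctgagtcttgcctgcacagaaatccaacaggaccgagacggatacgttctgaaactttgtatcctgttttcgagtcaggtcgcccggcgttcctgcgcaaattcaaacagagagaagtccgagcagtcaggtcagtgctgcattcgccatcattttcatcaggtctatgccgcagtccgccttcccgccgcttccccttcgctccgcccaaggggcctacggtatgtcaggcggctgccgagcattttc
Eif2s3y: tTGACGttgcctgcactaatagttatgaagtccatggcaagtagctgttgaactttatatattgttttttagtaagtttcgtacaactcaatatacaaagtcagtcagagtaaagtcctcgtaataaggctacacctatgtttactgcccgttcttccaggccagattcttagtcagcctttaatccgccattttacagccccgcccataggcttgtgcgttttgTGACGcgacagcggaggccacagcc

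The Eif3a stretch is 65.6% G and C and holds 1 match, that of Eif2s3x is 56.4% G and C and holds 0, and that of Eif2s3y is 44.4% G and C and holds 2. RefSeq promoter windows of 300 bases, reaching past the start, were at hand for 33 of the 42 member genes. The core was in 19 of the 33 on either strand, or 57.6%, in 36.5% of 7763 genes with a tested probe set and in 23.0% of all 27025 genes with a window. The full palindrome, TGACG followed directly by TCA, which contains the core, was in 0 of the 33, in 3.75% of the tested genes and in 2.03% of all. The start of a terminal oligopyrimidine tract, a C at the first transcribed base with 4 pyrimidines after it, was in 2 of the 33, Eif2s3x and Eif3f, or 6.06%, in 3.05% of the tested genes and in 3.01% of all. A match describes these letters only.

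eIF2 carries the initiator tRNA. The group read for it here also held Eif2a and Eif2d, which encode no subunit of eIF2. Of the 14 tested probe sets of this group 12 were higher in milrinone, with a median of 0.14 and none past the threshold (limma). Of all tested probe sets 62.0% were higher, with the median of 0.06. Eif2s2 encodes the beta subunit of eIF2, and its 5 tested probe sets were all higher, by 0.09 to 0.30. The 3 of Eif2s3x, given below, had both signs. The brightest probe set of Eif2s2 had 9556, 10440, 10355 and 8951 in untreated samples, and 10804, 10680, 10554 and 10924 in those given milrinone. All milrinone values lay above all untreated ones, by a difference of 0.13 (SE 0.06, 95% interval -0.01 to 0.27, adjusted p = 0.525 in limma). Eif2d, which can deliver tRNA without eIF2, had 4 tested probe sets, and they differed by 0.27, 0.32, 0.27 and 0.10, with adjusted p from 0.537 to 0.791. Of these 1436724_a_at had 2344, 2841, 2661 and 1831 in untreated and 3255, 2741, 2720 and 2838 in milrinone, so its groups overlapped, and it differed by 0.14 without untreated 4. The other at 0.27, 1455797_x_at, differed by 0.16 without untreated 4.

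Eif2s3x and Eif2s3y encode the gamma subunit from the X and the Y chromosome. Eif2s3y was empty on all 8 arrays with one probe set and listed on untreated 1 alone with the other, at 10.3. Eif2s3x was listed on all 8 arrays with each of its 3 probe sets. The brightest, 1451090_a_at, had 1997, 1940, 1005 and 1067 in untreated samples, and 854, 879, 1621 and 1871 in those given milrinone. The spread within each group was thus wider than the difference of -0.21 between them (SE 0.32), with untreated 1 and 2 and milrinone 3 and 4 high. A second, 1423744_x_at, had the same arrays high and differed by -0.17 (SE 0.32). The dim 1421895_at ran from 185 to 268 over all 8 arrays, without that split, and differed by 0.16 (SE 0.15).

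Those same 4 arrays were also the highest for probe sets of Eif2s2, Eif4a1, Eif4b, Eif4ebp2 and Eif4h, an order noticed after the values were seen, while for Eif2s2, Eif4a1 and Eif4b another probe set of the same gene was even or ordered otherwise. Eif2s2 1448819_at had 574, 614, 259 and 252 in untreated and 358, 278, 616 and 903 in milrinone, whereas the brightest Eif2s2 probe set stayed within 8951 to 10924. Eif4a1 1427058_at had 2998, 2936, 1299 and 1928 against 1356, 1458, 2324 and 2583, whereas 1434985_a_at of the same helicase gene ran from 3631 to 4170 on 7 arrays and had 1418 on untreated 4. Eif4b 1426380_at had 2014, 1278, 740 and 569 against 740, 737, 1058 and 1273, and 1426379_at ran from 3805 to 5255. Eif4h, a cofactor of the helicase, had 2 such probe sets, of which 1438554_x_at had 6370, 6297, 5252 and 5007 against 4596, 4675, 5714 and 6246. These probe sets spread more within a group than between the groups. The Actb 3' to 5' ratio was 8.94, 11.2, 13.1 and 6.87 for untreated 1 to 4 and 20.4, 11.6, 15.0 and 13.7 for milrinone 1 to 4. The Gapdh ratio was 7.04, 6.46, 6.23 and 7.68 for the untreated arrays and 6.91, 8.25, 6.78 and 6.09 for the milrinone arrays. The part of RNA quality in that order was not tested.

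**Figure D3:**
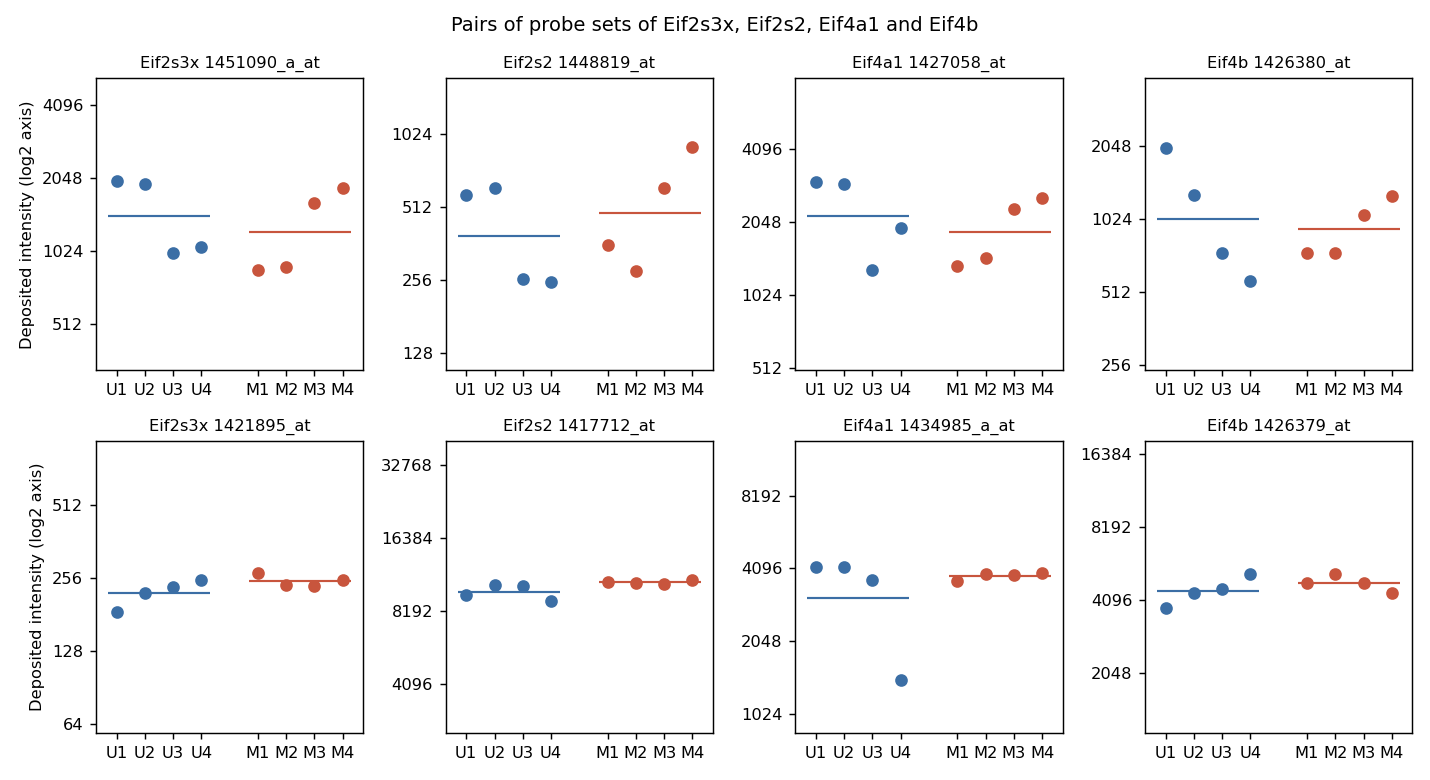
Deposited intensity (log2 axes, each panel spanning the same range of folds) on untreated arrays U1 to U4 and milrinone arrays M1 to M4, with lines at the group means on the log scale. The upper row shows probe sets of Eif2s3x, Eif2s2, Eif4a1 and Eif4b that are high on U1, U2, M3 and M4, and the lower row another probe set of each gene, such as Eif2s2 1417712_at at 8951 to 10924.

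The 5 subunits of eIF2B, the exchange factor that reloads eIF2 with GTP, gave 7 tested probe sets with differences from -0.12 to 0.10. Eif2b4 had the brightest, averaging 7302 ± 795 (SD, n = 4) untreated against 7465 ± 296 (SD, n = 4) with milrinone, and differed by 0.04 (95% interval -0.15 to 0.23). Eif2b1 and Eif2b5 differed by -0.12 each, Eif2b3 by 0.10 and the brightest Eif2b2 probe set by 0.08, with adjusted p of 0.738 or above in limma. These intervals are narrow enough to leave out a change of 1 on the log2 scale for each subunit named, and do not show that levels were equal. Centring on ribosomal proteins turned Eif2b1 to 0.04 and Eif2b5 to 0.05. With 1 array left out Eif2b5 was -0.010 without untreated 1, Eif2b1 was -0.042 without untreated 4, and Eif2b3 was -0.032 without untreated 1.

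Start codon selection is the work of eIF1, eIF1A and eIF5. The group read for it here also held Eif1ad, which encodes none of these. In this group 7 of 9 tested probe sets were higher, those of Eif1ad among them, where 62.0% of all tested were. Eif1ax averaged 6840 ± 831 (SD, n = 4) untreated against 7447 ± 313 (SD, n = 4) with milrinone, differing by 0.13 (95% interval -0.08 to 0.34), and by 0.048 without untreated 1. Eif1b, a close relative of Eif1, differed by 0.01 (-0.19 to 0.22) and by -0.02 with centring on the median. The brighter Eif1ad probe set differed by 0.18 (-0.11 to 0.47), and by 0.11 without untreated 1. Eif1a, a separate gene from Eif1ax, had 128, 91.5 and 43.8 on untreated 1 to 3 and 31.9 on milrinone 4, with 1424343_a_at, and a second probe set was listed on untreated 1 and 2 alone, at 309 and 164. Its signal was thus highest on the array with the most somatic marker signal, and it was not tested.

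Eif5, the GTPase activator of eIF2, gave probe sets that differed in sign. The dimmest, 1456256_at, had 88.2, 77.1, 77.2 and 145 in untreated samples, and 49.3, 56.6, 59.3 and 58.2 in those given milrinone. Its groups did not overlap, and its difference of -0.61 (SE 0.19, adjusted p = 0.460 in limma) became -0.43 without untreated 4. By contrast 1433631_at averaged 1702 ± 454 (SD, n = 4) against 2081 ± 158 (SD, n = 4), differing by 0.32 (SE 0.17) and by 0.20 without untreated 1, and the other 3 Eif5 probe sets ran from -0.06 to 0.13. Over all members, 23 genes had at least 2 tested probe sets, and these had 1 sign in 10 genes and both signs in 13. No gene had tested probe sets more than 1 apart on the log2 scale.

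eIF4F and its cofactors gave 24 tested probe sets of 9 genes, 14 lower and 10 higher, with a median of -0.08. Eif4e, the cap-binding protein, had the largest difference of them with 1450909_at, which had 600, 714, 962 and 595 in untreated samples, and 1088, 1116, 838 and 882 in those given milrinone. These groups overlapped through untreated 3, with a difference of 0.46 (SE 0.18, adjusted p = 0.495 in limma) that was 0.23 without untreated 1 and 4. The 2 brighter Eif4e probe sets differed by 0.22 and -0.17.

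Eif4g3, a scaffold that links eIF4E to the helicase, had 102, 107, 144 and 126 in untreated samples, and 163, 149, 174 and 156 in those given milrinone with the dim 1446145_at. All milrinone values were higher, by 0.39 (SE 0.15, adjusted p = 0.494 in limma). A further probe set, 1430578_at, differed by 0.33 (SE 0.15), while the brightest of Eif4g3, 1426833_at, differed by -0.01 (SE 0.09). Eif4g2, a scaffold relative that lacks the eIF4E site, averaged 3920 ± 329 (SD, n = 4) against 3408 ± 301 (SD, n = 4) with 1415863_at, differing by -0.20 (95% interval -0.42 to 0.02). Eif4e3, a divergent cap-binding protein, averaged 13195 ± 3019 (SD, n = 4) against 12459 ± 495 (SD, n = 4) with 1417978_at, differing by -0.06 (-0.34 to 0.23), and by 0.11 with centring on ribosomal proteins. Its other tested probe set, 1417977_at, differed by 0.19 (SE 0.13).

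The 4E binding proteins, which hold eIF4E inactive, had 3 tested probe sets, all lower in milrinone and none past the threshold. Eif4ebp1 1434976_x_at had 711, 153, 188 and 132 in untreated samples, and 125, 134, 108 and 111 in those given milrinone. Untreated 1 was far above the other 7 arrays, and the difference of -0.87 (SE 0.42, adjusted p = 0.522 in limma) was -0.35 without that array. A second Eif4ebp1 probe set was listed on untreated 1 and 2 alone, at 796 and 266. The summed signal of cumulus, granulosa and theca markers was 103518 on untreated 1 but 27490 to 30764 for untreated 2 to 4, and its part in Eif4ebp1 was not tested.

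Eif4ebp2 was read by 2 tested probe sets. With 1436158_at it had 390, 292 and 130 on untreated 1 to 3, an empty cell on untreated 4 that the fit left out, and 121, 83.8, 142 and 178 on the milrinone arrays. The groups overlapped, and the difference of -0.88 (SE 0.35, adjusted p = 0.495 in limma) was -0.57 without untreated 1. With 1417084_at it had 335, 287, 222 and 230 in untreated samples, and 201, 201, 323 and 322 in those given milrinone, high on untreated 1 and 2 and milrinone 3 and 4. The means were 268 ± 53.1 (SD, n = 4) against 262 ± 70.0 (SD, n = 4), differing by -0.05 (95% interval -0.52 to 0.42), which was 0.12 with centring on ribosomal proteins. The other 5 probe sets of these 2 genes were not tested, and 4 of the 5 had no value on any array.

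**Figure D4:**
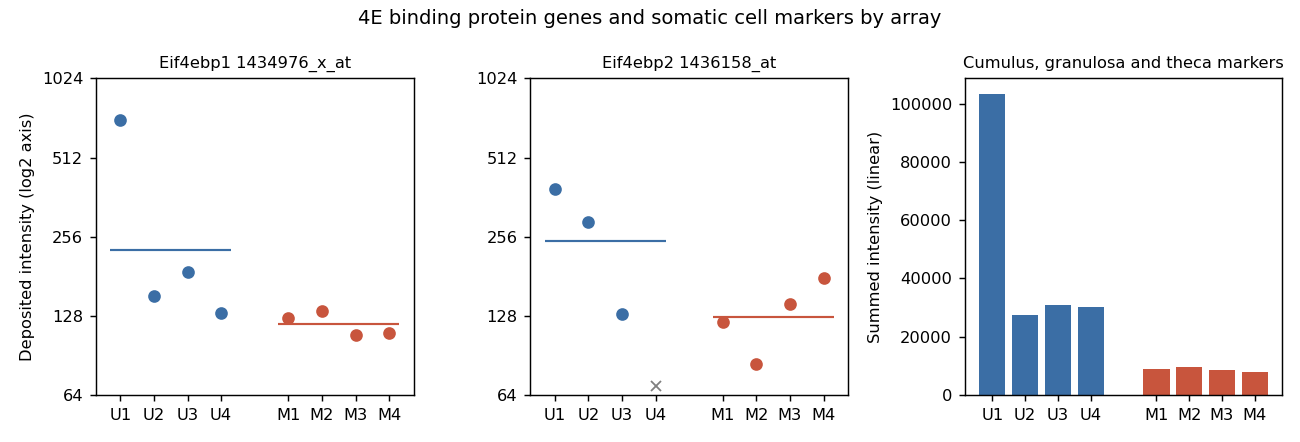
Deposited intensity (log2 axis) of a probe set each of Eif4ebp1 and Eif4ebp2, and the summed intensity (linear axis from 0) of 51 probe sets of cumulus, granulosa and theca markers, on untreated arrays U1 to U4 and milrinone arrays M1 to M4. Points and bars are arrays, lines are group means on the log scale and the grey cross is an empty cell. Empty cells add nothing to the summed bars. Eif4ebp1 at 711 and the marker sum at 103518 are both highest on U1.

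Subunit joining by Eif5b and the factor Eif6, which keeps free large subunits apart from small ones, showed no call among 3 tested probe sets. Eif6 averaged 10184 ± 1411 (SD, n = 4) against 9750 ± 307 (SD, n = 4), differing by -0.05 (95% interval -0.26 to 0.15), and by 0.12 with centring on ribosomal proteins. The brighter Eif5b probe set differed by 0.24 (SE 0.16) and the dimmer by -0.11 (SE 0.24), the first turning to -0.03 without untreated 1 and 4 and the second to 0.06 with centring on ribosomal proteins.

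Eif5a, the protein that carries the modified amino acid hypusine, lay close to even. Its brighter probe set had 7019, 7101, 7292 and 6746 in untreated samples, and 6938, 6735, 7297 and 6617 in those given milrinone, overlapping throughout, with a difference of -0.03 (95% interval -0.18 to 0.12). The dimmer one differed by -0.03 (-0.34 to 0.28). With centring on ribosomal proteins both were 0.14. Its relative Eif5a2 had a value on 1 of 8 arrays, 29.1 on untreated 4.

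Of the 37 member probe sets that were not tested, 16 had no value on any array, and 15 were listed on more untreated than milrinone arrays against 3 the other way. These are 40.5% and 8.11% of the 37, where of all 28749 probe sets not tested 27.0% were listed on more untreated and 11.6% on more milrinone arrays. The highest value among them was the 796 of Eif4ebp1 on untreated 1. Eif1a, Eif2s3y, Eif4a3 and Eif5a2 were the 4 member genes without a tested probe set, the single member probe set of Eif4a3 being empty on all 8 arrays.

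Genes that regulate or follow initiation were read from 5 lists, of which no probe set passed (limma). Among 19 tested probe sets of eIF2 kinases and their pathway, 1 was lower and 2 higher at an unadjusted p under 0.05, with a median of 0.08. The share of all tested probe sets under that p, in either direction, was 9.63%. The 2 higher were of Eif2ak1, the heme-regulated kinase of eIF2, which has 3 tested probe sets. Its 1421901_at had 1509, 1576, 2097 and 1818 in untreated samples, and 2259, 2380, 2522 and 2212 in those given milrinone, so the groups did not overlap, with a difference of 0.43 (SE 0.13, adjusted p = 0.456). The second, 1436006_at, was also higher on all milrinone arrays, by 0.49 (SE 0.16, adjusted p = 0.460). The third, 1421900_at, differed by 0.02 (SE 0.23) with groups that overlapped. It differed by -0.13 without untreated 1 and by 0.26 without untreated 4, its highest array at 1509.

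The list of poly(A) and cap-binding regulators had 5 of 22 tested probe sets lower at an unadjusted p under 0.05 and 0 higher, with a median of -0.14, where of all 16288 tested 652 were lower and 916 higher. Pabpc1, the cytoplasmic poly(A) binding protein that links the tail to eIF4G, had 3723, 1447, 1205 and 1265 in untreated samples, and 609, 419, 479 and 875 in those given milrinone. All milrinone values were lower and untreated 1 was highest, with a difference of -1.54 (SE 0.35, adjusted p = 0.265 in limma). Without untreated 1, the array with the most somatic marker signal, it was -1.16. Pabpc4, a relative, differed by -0.53 (SE 0.16, adjusted p = 0.456) with groups that overlapped, and by -0.33 (SE 0.16) with its second tested probe set. Of the other probe sets under that p, Larp1 1428244_at and Msi2 1435520_at were also highest on untreated 1, at 720 and 547. Those of Pabpc4 and Ythdf1 were not.

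In the list of the mTOR and S6 kinase pathway 2 of 19 tested probe sets were higher at an unadjusted p under 0.05 and 0 lower, with a median of 0.12. Of all tested probe sets 9.63% were under that p, 916 higher and 652 lower. The dim Rptor probe set 1430784_a_at, for the mTOR scaffold raptor, had 101, 107, 89.3 and 95.8 in untreated samples, and 148, 142, 151 and 131 in those given milrinone. These did not overlap, and the difference was 0.48 (SE 0.13, adjusted p = 0.412 in limma). A brighter Rptor probe set, 1434619_at, was not tested. It had 268 and 258 on untreated 1 and 2 and, among milrinone arrays, 146 on milrinone 3 alone. Mknk1, a kinase of eIF4E, differed by 0.34 (SE 0.15, adjusted p = 0.512), and by 0.35 and 0.17 with its other tested probe sets.

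For the elongation factors 1 of 12 tested probe sets was lower at an unadjusted p under 0.05 and 0 higher, with a median of -0.12. The share of all tested probe sets under that p, in either direction, was 9.63%. The lower probe set belonged to Eef1a1, which delivers tRNA to the ribosome, at 15756 ± 1321 (SD, n = 4) against 13749 ± 983 (SD, n = 4), differing by -0.20 (SE 0.07, adjusted p = 0.483 in limma). Dohh, which completes the hypusine of eIF5A, differed by -0.22 (SE 0.16). For termination and recycling 0 of 15 were at an unadjusted p under 0.05, with a median of 0.00. Denr differed by -0.26 (SE 0.15) and Abce1, which splits ribosomes after termination, by -0.74 (SE 0.41) and -0.65 (SE 0.39) with its 2 tested probe sets, the first with an empty cell in each group. Without untreated 1, the array with the most somatic marker signal, these were -0.36 and -0.33 for Abce1 and -0.15 for Denr.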

How the data were processed

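Signals of 8 single-colour mouse arrays were analysed, 4 untreated and 4 milrinone. The deposited intensity of each probe set is on a linear scale, and of the authors' processing, software, scaling and empty cells are each not given in the sources used for this text. Intensities were used as deposited, as log2(intensity + 16), and empty cells were left out. Gene names come from the platform annotation, in which 34945 probe sets have 1 symbol, 932 several and 9160 none, and all 42 member genes matched RefSeq (GRCm38.p6) by Entrez identifier. A test required values from 3 or more arrays per group. The fit used limma 3.58.1 under R 4.3.3 with a trended eBayes, and two-sided p-values were adjusted by Benjamini-Hochberg over all 16288. Python 3.11.15, pandas 2.3.3 and matplotlib 3.10.9 did the rest.

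The members and lists were chosen with earlier results of these data known. The members named are all probe sets of Eif3a, Eif2s3x and Eif2s3y, those listed on at least 3 arrays of 1 group and at most 1 of the other, and in each role the 4 with the smallest p and the brightest, with 2 of the smallest p from each related list. Other genes named were chosen after their values were seen. On simulated data for this comparison over 16288 probe sets, 64% of 2-fold and 93% of 4-fold changes were recovered, and 7 of 164 calls were false. The simulated noise was drawn independently for each value, without arrays that deviate as a whole, so these rates need not hold for the real arrays. The alternatives tried were pseudocount, listing filter, scaling, trend, array weights, replicate block and leaving out arrays. The number of arrays limits the precision.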

Additional observations from a re-analysis of the deposited data

Results flagged for a closer look

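Among 66 groups of 4 arrays of the named members, 3 had 1 array far from the other 3, where chance gives about 1 in 20, or 3.3. The value given is the gap of that array to its nearest neighbour as a share of the range of its group. Milrinone 1 was highest for Eif2b2 1434538_x_at (0.915) and lowest for Eif5b 1434604_at (0.841), and milrinone 2 was highest for Eif2b4 (0.952).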

How the results depend on the processing

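The count of members past the threshold was 0 with all arrays, 2 with array weights, 1 after quantile normalization, 1 without untreated 1 and 4 (an alternative chosen after seeing the data), and 0 to 1 with each array left out. All were Eif3a, whose 3 tested probe sets stayed lower in milrinone under every alternative. The 2 stronger values of its 1416659_at and 1448425_at with array weights were -0.85 and -0.81, and 1448425_at had -0.94 after quantile normalization, -0.80 without untreated 1 and 4 and -0.99 to -0.77 with each array left out. All probe sets past the threshold numbered 19, and 93 with array weights, 85 without untreated 1 and 4, 53 with centring on ribosomal proteins, 12 for those listed on all 8 arrays and 9 to 69 with each array left out. Members at an unadjusted p under 0.05 were 8, and 5 to 13 with each array left out. The median of the members moved from 0.01 to 0.18 with centring on ribosomal proteins, and that of all tested from 0.06 to 0.23.

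Of 35 named differences 14 changed sign in some alternative, the largest of them 0.24 in size in the main setting, and 21 in none. Centring on ribosomal proteins gave 0.045 for Eif2b1, 0.045 for Eif2b5, 0.094 for Eif3e, 0.11 for Eif4e3, 0.12 for Eif4ebp2 1417084_at, 0.14 for each Eif5a probe set, 0.062 for Eif5b 1434605_at and 0.12 for Eif6. Eif1b had -0.10 with array weights, -0.15 without untreated 1 and 4 and -0.018 with centring on the median. Eif4ebp2 1417084_at had 0.11 with array weights, and without untreated 1 and 4 Eif3e had 0.028, Eif4e3 0.020, Eif4ebp2 1417084_at 0.015 and Eif5b 1434604_at -0.032. With each array left out the ranges were -0.067 to 0.072 for Eif1b, -0.032 to 0.23 for Eif2b3, -0.026 to 0.10 for Eif2b4, -0.38 to 0.036 for Eif2s3x 1423744_x_at, -0.14 to 0.0004 for Eif3e, -0.15 to 0.088 for Eif4e3, -0.16 to 0.057 for Eif4ebp2 1417084_at, -0.10 to 0.048 for Eif5a 1437859_x_at, -0.34 to 0.12 for Eif5b 1434605_at and -0.12 to 0.035 for Eif6. The causes were not tested.

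The labels do not say whether samples with the same replicate number belong together, and the main fit did not pair them. Same-numbered arrays correlated at 0.03, -0.20, -0.02 and -0.27 in their deviations, which cannot settle whether they were collected in pairs. With the replicate block 0 members and 13 of all probe sets passed, and Eif3a 1448425_at had an adjusted p of 0.243.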

Other observations

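A further 6 probe sets with an initiation factor among several gene symbols were outside the members and are given without assignment to a gene. The 3 shared by Eif3j1 and Eif3j2 differed by -0.01, -0.12 and -0.09, that shared by Eif4a3 and Gm5576 had 5759 to 6974 in untreated and 5919 to 6425 in milrinone and differed by -0.03, that shared by Eif4ebp3 and Ankhd1 differed by 0.14, and that shared by Eif1a and other genes differed by 0.24. None passed (limma), and 0 had an unadjusted p under 0.05.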
